A study of Mus musculus with 24 samples.

Results

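Male mice that carried a muscle Cre transgene were compared with males that lacked it, with both groups given tamoxifen. The comparison took 6 of the 24 gastrocnemius (calf muscle) RNA libraries in the study, 3 from each genotype, chosen by the genotype and treatment that the labels give. The transgene males carried HSA-MCM, in which the human skeletal actin promoter drives MerCreMer, a Cre recombinase of muscle fibres that tamoxifen activates. The other males, called flox males here although their titles read WT, lacked HSA-MCM. All 6 animals had the floxed alleles Numb(f/f) and NumbL(f/f). Transgene males given tamoxifen are titled as conditional knockouts. The 6 vehicle libraries, 3 of each genotype, allow the same genotype comparison without the drug. The sources used here give no age, tamoxifen dose or interval before sampling. Titles number the transgene males 1039 to 1085 and the flox males 2702 to 2751, and the labels do not say whether the number ranges mark separate litters or cohorts.

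Numb and its relative Numbl encode membrane-associated adaptor proteins that take part in endocytosis and are known as regulators of Notch receptors. In adult skeletal muscle the gastrocnemius is built mostly of fast fibres, with fewer slow, oxidative ones. MerCreMer under this promoter acts in muscle fibres, and whole-muscle RNA also holds transcripts of vessels, nerve and connective tissue. In such bulk RNA, fewer cells of a type and less RNA per cell cannot be told apart.

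The 12 male libraries held 21516819 to 29982077 counts. Levels are given as CPM, counts scaled to a common library total, with TMM scaling over the 12 male libraries, and differences as log2 of transgene over flox with a standard error (SE). Within each of the 4 groups replicates differed beyond sampling noise (chi-square divided by its degrees of freedom, 8.34 to 104). Each male library carries its own title number and is read here as 1 animal. A p-value sets a difference between groups against the spread between libraries within the 4 groups. Genotype and title number range go together, so the test cannot tell them apart. Fibre markers were abundant: 10 of them summed to 150000 to 250000 CPM in the transgene and 184000 to 207000 CPM in the flox tamoxifen libraries. Transgene tamoxifen replicate 1 stood apart from its 2 partners (the same ratio was 96.4 and 104, against 17.3 between the partners). The titles of the 3 transgene vehicle males say vehicle while their treatment field says tamoxifen, and each vehicle value below rests on the titles. Flrt1, a leucine-rich repeat membrane protein, lay at 3.32, 3.73 and 3.81 CPM in those 3 libraries and at 1.72, 2.37 and 1.92 CPM in the flox vehicle libraries. It lay at 171, 289 and 273 CPM in the transgene and 215, 218 and 209.5 CPM in the flox tamoxifen libraries.

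Numb and Numbl were examined first. Numb (chromosome 12, 83794034 to 83921934, minus strand, GRCm38) stood at 20.1, 20.7 and 17.8 CPM in the transgene and 16, 16.9 and 16.3 CPM in the flox tamoxifen libraries. The groups did not overlap, with the transgene libraries above, and the log2 difference was 0.25 ± 0.10 (SE, adjusted p = 0.151), short of the threshold of 0.05. Numbl (chromosome 7, 27258433 to 27282144, plus strand) stood at 4.8, 3.22 and 3.52 CPM in the transgene and 5.24, 6.62 and 5.32 CPM in the flox libraries. Here the transgene libraries were the lower ones, without overlap, and the difference of -0.57 ± 0.18 (SE, adjusted p = 0.0828) also missed the threshold. Both genes share exonic positions with another annotated gene, and whole-gene counts do not resolve the exons between loxP sites. Loss of either gene is therefore neither shown nor denied by these counts. Esr1 (chromosome 10, 4611593 to 5005614, plus strand), the oestrogen receptor whose ligand-binding part MerCreMer carries, stood at 994, 1053 and 2012 CPM in the transgene and 38.1, 35.6 and 43.1 CPM in the flox libraries. All 3 carriers lay far above all 3 non-carriers, with a log2 difference of 5.12 ± 0.37 (SE, adjusted p = 0.000124), which is how the genotype labels can be checked in these data.

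Of 15628 genes tested, 817 (5.23%) differed between transgene and flox males after tamoxifen. They comprised 432 genes (2.76% of those tested) that were higher in transgene males and 385 (2.46%) that were lower. The median size of the difference among called genes was 0.65 on the log2 scale. A difference of at least 2-fold was found for 236 of the 817, of which 84 were higher and 152 lower, and one of at least 4-fold for 63. Groups of 3 did not overlap in 816 of the 817, and the same was true of 4328 genes, or 27.7%, of all those tested. Over all genes tested the median difference was -0.01. The count of 817 became 897, 533 and 354 without transgene tamoxifen replicates 1, 2 and 3, and 351, 293 and 280 without flox tamoxifen replicates 1, 2 and 3.

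**Figure D1:**
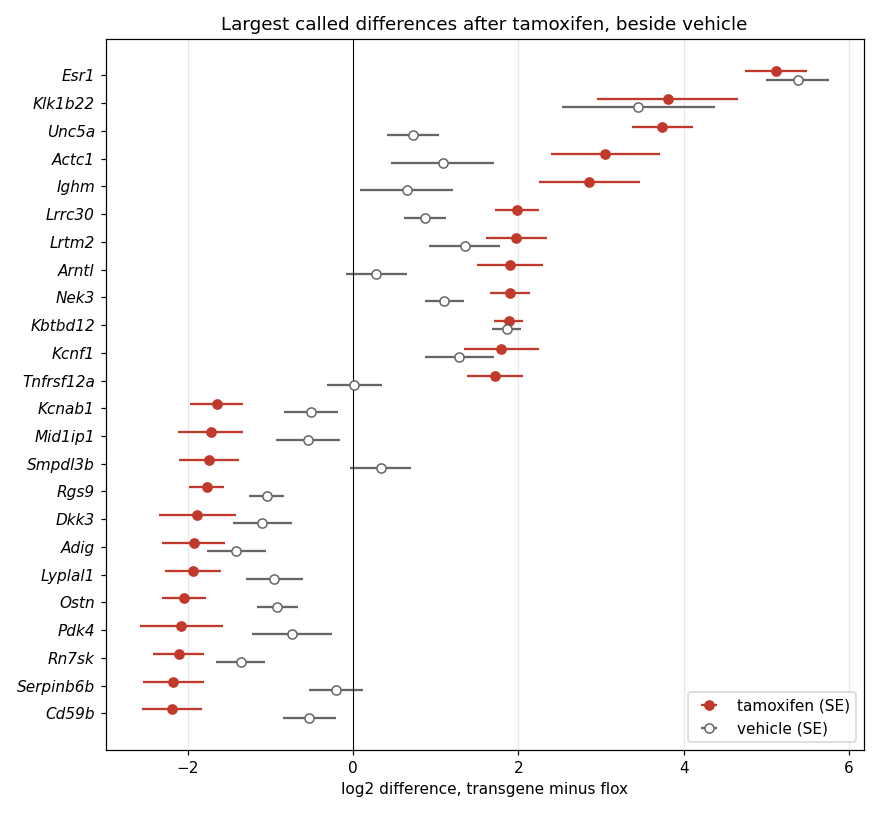
Log2 difference, transgene minus flox, with its SE, for the 12 largest called rises and 12 largest called falls after tamoxifen (filled points) among genes whose log2 CPM averaged 0 or more, whose groups did not overlap and whose symbol is no clone or predicted model, with the vehicle difference of the same genes beside it (open points). Esr1 and Kbtbd12 lie at about the same place under both treatments, at 5.12 and 5.38 for Esr1, while Unc5a (3.74 and 0.73) and Tnfrsf12a (1.72 and 0.02) lie far from 0 mainly after tamoxifen. The tamoxifen minus the vehicle difference passed the test for neither Unc5a nor Tnfrsf12a (adjusted p = 0.162 and 0.363).

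The largest differences were ranked among genes whose log2 CPM averaged 0 or more, whose groups did not overlap and whose symbol is no clone or predicted model. Among the largest rises in transgene males, Unc5a (chromosome 13, 54949411 to 55006018, plus strand), a receptor for the guidance cue netrin, stood at 22.8, 24.3 and 20.3 CPM against 1.53, 2.22 and 1.3 CPM in flox males. Every transgene library was about an order of magnitude above every flox library, a log2 difference of 3.74 ± 0.37 (SE, adjusted p = 0.000818). The vehicle flox libraries held 8.26, 9.01 and 21.5 CPM and the vehicle transgene libraries 22.4, 19.7 and 21.8 CPM. Unc5a was thus lowest in the flox tamoxifen group. The tamoxifen minus the vehicle genotype difference of Unc5a, 3.01 ± 0.48 (SE, adjusted p = 0.162), did not pass the test. Lrrc30, a leucine-rich repeat protein, stood at 153, 75.5 and 121 CPM against 30.6, 29.8 and 27.9 CPM, a difference of 1.99 ± 0.27 (SE, adjusted p = 0.00344). Tnfrsf12a, the receptor of the cytokine TWEAK, stood at 25, 21.2 and 28.3 CPM against 10.2, 5.74 and 6.72 CPM, and was higher by 1.72 ± 0.34 (SE, adjusted p = 0.0209). Its vehicle libraries overlapped between the genotypes, with a difference of 0.02, but the change between the treatments did not pass the test (adjusted p = 0.363).

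Actc1, the cardiac actin that adult skeletal muscle expresses at low levels, stood at 1181, 258 and 544 CPM against 64.1, 82 and 92.8 CPM. The transgene libraries were all higher but ranged widely, and replicate 1, which stood apart, was the highest of them. The difference was 3.05 ± 0.66 (SE, adjusted p = 0.0341), and the call was lost in 9 of 20 alternative analyses. Ighm, the heavy chain of immunoglobulin M, stood at 97.5, 72.7 and 76.4 CPM against 6.03, 24.1 and 4.02 CPM, a difference of 2.86 ± 0.61 (SE, adjusted p = 0.0324) that was lost in 10 of 20. The lymphocyte list had no called gene among its 6 tested members, and its summed level was 8.12 to 17.0 CPM in the transgene and 7.58 to 25.4 CPM in the flox libraries. Klk1b22, a kallikrein protease of a multigene family whose members may share reads, differed by 3.81 ± 0.85 (SE, adjusted p = 0.0325). It was near 0 in 2 of the flox libraries (0, 0.0383 and 1.26 CPM), and the call was lost in 10 of 20 alternatives, over which the difference ran from 3.28 to 8.05. Lrtm2, Nek3, Kbtbd12, Kcnf1 and Arntl completed the 12 largest rises with differences of 1.98, 1.90, 1.88, 1.79 and 1.90, and the Kcnf1 call was lost in 14 of 20 alternatives.

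Within the same limits on level and symbol, the falls were led by genes of low level. Genes outside those limits had larger falls, among them Aldh3a1 (-4.61), Gm4737 (-4.60), AA465934 (-4.22), Btla (-3.49) and Gdf15 (-2.43), described below. Cd59b, an inhibitor of complement, stood at 0.433, 0.558 and 0.113 CPM against 1.94, 1.53 and 1.56 CPM, a difference of -2.19 ± 0.36 (SE, adjusted p = 0.00562). Serpinb6b, a protease inhibitor, stood at 0.505, 0.387 and 0.34 CPM against 1.2, 1.76 and 2.63 CPM and differed by -2.17 ± 0.37 (SE, adjusted p = 0.00617). Both genes lay between 1.03 and 1.95 CPM in all 6 vehicle libraries, so that the transgene tamoxifen group was the low one. For neither gene did the change between the treatments pass the test (adjusted p = 0.36 and 0.301). Rn7sk, the small nuclear RNA that restrains transcription elongation, whose genomic copies may share reads, was lower, with a difference of -2.11 ± 0.31 (SE, adjusted p = 0.00297). Among genes of higher level, Ostn, which encodes the secreted peptide osteocrin, stood at 5.74, 5.84 and 2.65 CPM against 14.2, 22.5 and 21.8 CPM and was lower, with a difference of -2.04 ± 0.27 (SE, adjusted p = 0.00271). Kcnab1, a subunit of voltage-gated potassium channels, stood at 2.63, 5.41 and 6.69 CPM against 15.4, 14.5 and 16.1 CPM and was lower, with a difference of -1.65 ± 0.32 (SE, adjusted p = 0.0157). Mid1ip1, a regulator of lipid synthesis, stood at 25, 11.7 and 10.4 CPM against 48.6, 55.1 and 51.9 CPM, a difference of -1.72 ± 0.39 (SE, adjusted p = 0.0372) that was lost in 9 of 20 alternatives. Lyplal1, Adig, Smpdl3b and Rgs9 differed by -1.93, -1.93, -1.74 and -1.77.

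The vehicle males ask how much of this genotype difference was present without the drug, in 6 other libraries. After vehicle 148 genes (0.947% of those tested) were called, 60 higher and 88 lower in transgene males. Of the 817 genes called after tamoxifen, 727 (89.0%) had the same sign of difference after vehicle, against 64.7% of all genes tested. The vehicle difference of the 817 genes, taken in the tamoxifen direction, had a median of 0.28 log2, against 0.65 after tamoxifen. Genes called under both treatments numbered 78, all with the same sign, which is 9.55% of the tamoxifen calls and 52.7% of the vehicle calls. The count of 148 fell to 52 and 59 without transgene vehicle replicates 1 and 3, and to 44 and 63 without flox vehicle replicates 1 and 2.

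**Figure D2:**
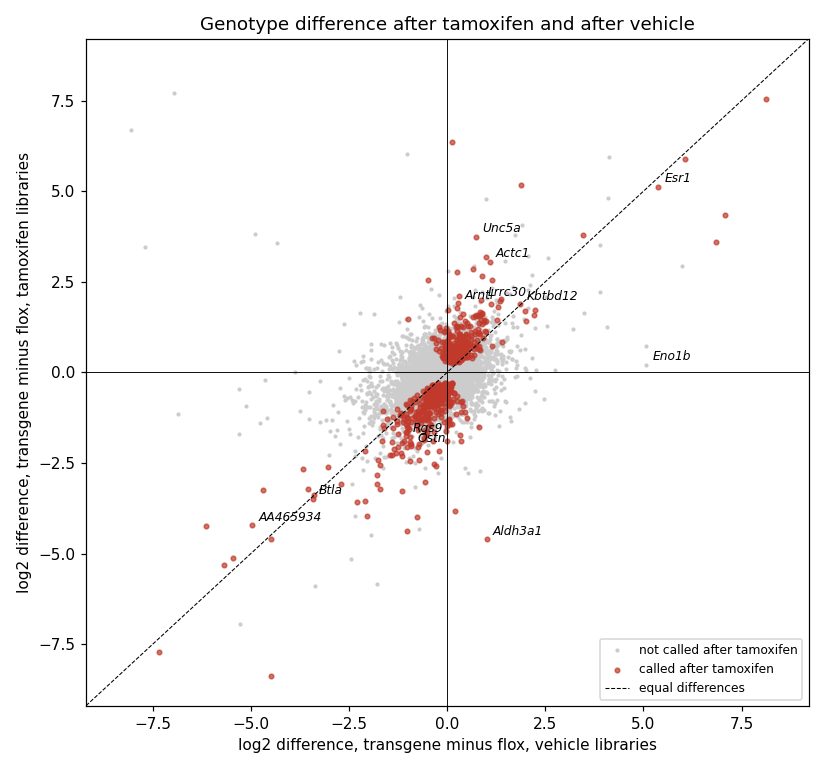
Log2 difference, transgene minus flox, in the vehicle libraries (x axis) and in the tamoxifen libraries (y axis), one point per gene tested; red points are the 817 genes called after tamoxifen and the dashed line marks equal differences. Of the red points 727 share their sign between the axes, Esr1, Btla and AA465934 lie near the dashed line, and Aldh3a1 (-4.61 after tamoxifen, 1.01 after vehicle) lies far from it.

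Several genes were called with the same sign with and without the drug. Kbtbd12, a kelch-domain protein, stood at 79.4, 135 and 130.2 CPM against 32.7, 29.3 and 31.4 CPM after tamoxifen, and at 137, 126 and 164 CPM against 35.1, 41.3 and 41.1 CPM after vehicle. All 6 transgene libraries lay above all 6 flox libraries, with differences of 1.88 ± 0.18 (SE, adjusted p = 0.000215) and 1.86 ± 0.18 (SE, adjusted p = 0.000292). Nek3, a NIMA-related kinase, differed by 1.90 ± 0.24 (SE, adjusted p = 0.0012) and 1.11 ± 0.23 (SE, adjusted p = 0.0447). Dnajc3, an endoplasmic reticulum co-chaperone that inhibits the kinase PERK, stood at 52.5, 51.5 and 62.3 CPM against 28.4, 26.4 and 28.3 CPM after tamoxifen, with differences of 1.0 ± 0.10 (SE, adjusted p = 0.000164) and 0.60 ± 0.10 (SE, adjusted p = 0.00968). Rgs9, a regulator of G-protein signalling, was lower under both treatments, with differences of -1.77 ± 0.22 (SE, adjusted p = 0.000858) and -1.04 ± 0.21 (SE, adjusted p = 0.0396).

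A further 5 genes were chosen after their values were seen, as the clearest cases of this kind. Metap1d, a mitochondrial methionine aminopeptidase, stood at 36, 29.2 and 28.9 CPM against 10.5, 11.3 and 12.8 CPM after tamoxifen, with differences of 1.44 ± 0.14 (SE, adjusted p = 0.00015) and 1.28 ± 0.14 (SE, adjusted p = 0.000463). Btla, an inhibitory receptor of lymphocytes, stood at 0.361, 0.344 and 0.378 CPM against 3.96, 4.4 and 3.96 CPM, and Tgfb2, a growth factor, at 31.1, 34.8 and 36.6 CPM against 19.9, 17.5 and 20 CPM. Their differences were -3.49 ± 0.32 (SE, adjusted p = 0.000124) and -3.42 ± 0.36 (SE, adjusted p = 0.000463) for Btla and 0.84 ± 0.09 (SE, adjusted p = 0.00066) and 0.52 ± 0.09 (SE, adjusted p = 0.0217) for Tgfb2. AA465934, a non-coding transcript on chromosome 11, stood at 0.902, 0.515 and 0.378 CPM against 12.2, 10.8 and 11.1 CPM, and the predicted gene Gm4737 at 0.397, 0.301 and 0.34 CPM against 4.95, 9.19 and 11.4 CPM. Both were more than an order of magnitude lower in each transgene library, with differences of -4.22 ± 0.24 (SE, adjusted p = 2.07e-06) and -4.60 ± 0.31 (SE, adjusted p = 1.24e-05) after tamoxifen and -4.97 ± 0.25 (SE, adjusted p = 5.23e-07) and -4.49 ± 0.31 (SE, adjusted p = 1.26e-05) after vehicle. Btla (45224315 to 45257670) and Gm4737 (46152985 to 46155077) lie near each other on chromosome 16. That chromosome had the highest share of called genes of any autosome, 8.09% of 482 after tamoxifen and 2.7% after vehicle. The shares of all genes tested were 5.23% and 0.947%. Whether such neighbours differ independently was not tested.

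The female tamoxifen libraries were set beside these genes as values only, because transgene and flox females lie in separate tables and genotype and table cannot be told apart there. Female CPM were scaled over the 12 female libraries. Esr1 was high in transgene females (926, 1397 and 393 CPM) and low in flox females (37.3, 32.6 and 28.8 CPM), as in males. AA465934 lay at 1.07, 1.01 and 1.27 CPM in transgene and 1.15, 1.28 and 1.13 CPM in flox females, with no library of either genotype near the 10.8 CPM or more of flox males. Metap1d lay at 38.2, 35.3 and 37.8 CPM and 34.4, 39 and 40.4 CPM, again nearer the transgene than the flox males in value. Male and female levels were scaled separately, however, and some genes differed widely between the sexes' libraries. The mitochondrial gene mt-Nd6 lay at 1776 to 2909 CPM in males and 51.8 to 87.2 CPM in females. Which male genotype was the group apart therefore cannot be told from the female levels. Kbtbd12 lay at 217, 122 and 124 CPM in transgene females but at 163, 32.4 and 33 CPM in flox females, where 1 library was high and the other two were at the level of flox males. Over the 817 called genes, 388 (47.5%) had the same sign in the female tamoxifen libraries, against 49.9% of all genes tested.

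The difference between the tamoxifen and vehicle genotype differences was itself significant for 2 of 15628 genes (0.0128%), with 1290 genes at an unadjusted p under 0.05. The calls numbered 0 with limma-voom and 79 with DESeq2. Aldh3a1 (chromosome 11, 61207537 to 61218421, plus strand), an aldehyde dehydrogenase, stood at 4, 5.86 and 8.31 CPM in flox males after tamoxifen. It stood at 0.253, 0.172 and 0.302 CPM in transgene males after tamoxifen, at 0.357, 0.148 and 0.331 CPM in transgene males after vehicle and at 0.164, 0.108 and 0.14 CPM in flox males after vehicle. The flox tamoxifen group alone was high, the genotype difference was -4.61 ± 0.36 (SE, adjusted p = 5.05e-05) after tamoxifen, and the tamoxifen minus the vehicle difference was -5.61 ± 0.65 (SE, adjusted p = 0.00644). Without transgene vehicle replicate 1 this was not called. Eno1b, a near-identical copy of the enolase gene Eno1 that may share its reads, stood at 7.25, 6.49 and 13.6 CPM in transgene and 10.7, 6.89 and 6.12 CPM in flox males after tamoxifen. After vehicle it stood at 8.52, 7.76 and 8.87 CPM and 0.164, 0.251 and 0.327 CPM, so that the flox vehicle group alone was low. Its interaction was -4.86 ± 0.49 (SE, adjusted p = 0.00478), while its difference after tamoxifen was 0.21 ± 0.27 (SE, adjusted p = 0.709).

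**Figure D3:**
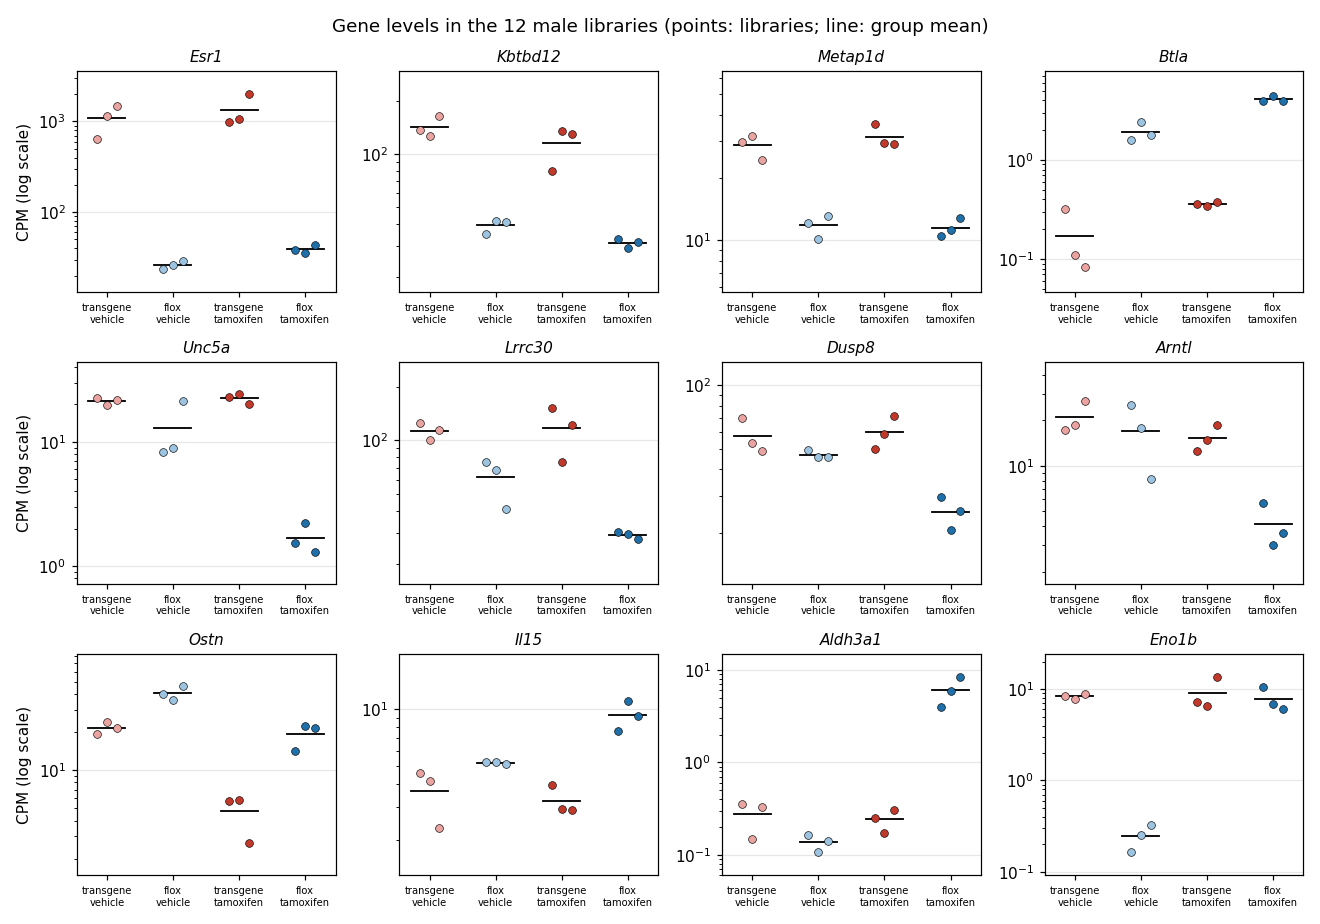
Level of 12 genes in each of the 12 male libraries (CPM, log axis; points are libraries and the line is the mean of 3). Esr1, Kbtbd12, Metap1d and Btla separate the genotypes under both treatments, Unc5a and Aldh3a1 have the flox tamoxifen group apart, and Eno1b has the flox vehicle group apart.

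Genes of the circadian clock, a feedback loop in which Clock and Arntl (BMAL1) activate Per and Cry genes that repress them, gave 2 higher and 2 lower genes among 21 tested, 19% against the 5.23% of all genes. Arntl stood at 12.6, 14.8 and 18.5 CPM against 5.7, 2.99 and 3.62 CPM, with all transgene libraries above all flox libraries and a difference of 1.90 ± 0.40 (SE, adjusted p = 0.025). Clock stood at 42.4, 42.8 and 38.5 CPM against 26.6, 18.3 and 20.7 CPM, a difference of 0.92 ± 0.17 (SE, adjusted p = 0.0114). Per3 stood at 35.3, 35.2 and 30.6 CPM against 56.9, 58.3 and 61.5 CPM and was lower, with a difference of -0.81 ± 0.20 (SE, adjusted p = 0.0355), a call lost in 10 of 20 alternatives. The median over the list was 0.00, and none of the 21 was called after vehicle, where Arntl differed by 0.28. For Arntl, Clock and Per3 the change between the treatments did not pass the test (adjusted p = 0.465, 0.543 and 0.376). The Arntl call was lost in 6 of 20 alternatives. Without 1 tamoxifen library the higher calls of the list numbered 0 to 2 and the lower calls 1. The sources used here give no time of day for sampling.

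Per3 is shown with its promoter because it belongs to the clock outputs that D-box factors control. The 250 bases before its start (RefSeq, GRCm38.p6, chr4:151044666-151044915, minus strand) are given 5′ to 3′, with the D-box TTATGTAA in capitals, and both matches lie on the strand of the gene.
Per3: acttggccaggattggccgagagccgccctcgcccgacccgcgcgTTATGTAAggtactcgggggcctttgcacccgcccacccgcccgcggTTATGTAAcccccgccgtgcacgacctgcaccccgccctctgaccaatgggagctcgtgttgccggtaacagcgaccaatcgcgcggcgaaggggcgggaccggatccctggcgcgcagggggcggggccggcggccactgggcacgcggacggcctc
Matches begin 205 and 158 bases before the start. The same letters, read on both strands, occur in 0.811% of 32536 RefSeq promoter windows of that length, and at least 2 matches occur in 0.0184%. The windows of Arntl and Clock held no such match. The letters of an E-box (CACGTG) and of a ROR element (AGGTCA) were sought in the same windows. No window of Arntl, Clock or Per3 held the E-box letters. The ROR letters occurred in 1 window of Clock, and occur in 14.0% of the RefSeq windows. Any control of Per3 through its D-boxes was not tested. Among the factors that bind D-boxes, whose values were chosen after they were seen, Dbp stood at 69.8, 95.6 and 60.1 CPM against 118, 123 and 104 CPM, without overlap. Its difference of -0.61 ± 0.32 (SE, adjusted p = 0.307) did not pass the test. Tef and Hlf, of the same family, differed by -0.13 and -0.12, and the repressor Nfil3 by 0.65 (adjusted p = 0.61, 0.826 and 0.577).

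Of 23 tested genes of the p53 pathway, which responds to DNA damage, 4 were lower in transgene males and 0 higher, a share of 17.4% called against 5.23% of all genes. Gadd45a, a growth arrest and repair gene, stood at 17.5, 7.69 and 14.9 CPM against 25.5, 27.9 and 32.4 CPM, a difference of -1.10 ± 0.22 (SE, adjusted p = 0.0183). Rrm2b, a ribonucleotide reductase subunit, was lower after tamoxifen, with a difference of -0.34 ± 0.08 (SE, adjusted p = 0.0213), and after vehicle, with -0.36 ± 0.08 (SE, adjusted p = 0.0429). Perp, a membrane protein of cell junctions, was lower, with a difference of -1.26 ± 0.33 (SE, adjusted p = 0.0428), a call lost in 9 of 20 alternatives. After vehicle Gadd45a and Perp differed the other way, by 0.46 and 0.50 (adjusted p = 0.34 and 0.498), and 2 of the 4 genes had the same sign as after tamoxifen. Cdkn1a, the cell cycle inhibitor p21, stood at 13.3, 12.5 and 8.17 CPM against 28.5, 18.1 and 40.5 CPM, and its difference of -1.36 ± 0.34 (SE, adjusted p = 0.0498) was lost in 16 of 20 alternatives. The median of the list was -0.10 after tamoxifen and 0.07 after vehicle. Without 1 tamoxifen library the lower calls numbered 0 (without flox replicate 3) to 2, and 4 genes of the list were called higher without transgene replicate 1 and with limma-voom and quality weights.

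Factors secreted by muscle gave 4 lower genes and 0 higher among 18 tested, 22.2% called against 5.23% of all genes, with a median of -0.15. Besides Ostn, these were Il15, a cytokine, at 3.93, 2.92 and 2.87 CPM against 7.64, 11 and 9.18 CPM and lower, with a difference of -1.51 ± 0.23 (SE, adjusted p = 0.00333), and Gdf15, a stress cytokine, at 0.18, 0 and 0.151 CPM against 0.537, 0.613 and 0.765 CPM and lower, with a difference of -2.43 ± 0.65 (SE, adjusted p = 0.0465), a call lost in 12 of 20. Dkk3, of the Dickkopf family of secreted glycoproteins, stood at 1.3, 1.76 and 0.907 CPM against 3.14, 6.51 and 4.86 CPM after tamoxifen. It stood at 14.4, 24.4 and 37.5 CPM against 57, 66.5 and 39 CPM after vehicle, so that both tamoxifen groups lay below both vehicle groups. Its genotype difference after tamoxifen was -1.88 ± 0.47 (SE, adjusted p = 0.0495), lost in 14 of 20 alternatives. Ostn and Il15 were called in all 20 alternatives, and 2 genes of the list remained called when any 1 tamoxifen library was left out. With the slow fibre covariate 2 were lower and 1 higher.

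Fatty acid uptake and oxidation genes had 1 higher and 3 lower members among 32, 12.5% called against 5.23% of all genes. The median difference was -0.21 after tamoxifen and -0.28 after vehicle. The list summed to 5170, 3370 and 3010 CPM in the transgene libraries, in the order of their slow fibre sums of 6910, 2600 and 1020 CPM, and to 4840 to 5520 CPM in the flox libraries. With the slow fibre level as a covariate the median was -0.0293 and 1 gene was lower. Any part of slow fibre content in the difference of this list was not tested. Slc27a1, a fatty acid transporter of the plasma membrane, stood at 73.9, 52.4 and 51.4 CPM against 147, 153 and 127 CPM and was lower, with a difference of -1.26 ± 0.18 (SE, adjusted p = 0.00333), in every alternative. Ucp3, a mitochondrial uncoupling protein of muscle, stood at 30.1, 67.5 and 58.7 CPM against 162, 157 and 144 CPM and was lower, with a difference of -1.57 ± 0.36 (SE, adjusted p = 0.0399), lost in 11 of 20. Pdk4, the kinase that shuts pyruvate out of oxidation, stood at 162, 129 and 44 CPM against 464, 476 and 469 CPM, a difference of -2.07 ± 0.50 (SE, adjusted p = 0.0486) lost in 14 of 20. Ppard, a nuclear receptor that drives fat oxidation, was the higher member, at 41.9, 30.7 and 36.5 CPM against 26.2, 25.8 and 22.5 CPM and by 0.55 ± 0.14 (SE, adjusted p = 0.0411). Without transgene tamoxifen replicate 1 the lower calls numbered 6, without any other tamoxifen library 1, and with limma-voom and quality weights 10. The 15 members of the adipocyte list summed to 411 to 481 CPM in the transgene and 561 to 933 CPM in the flox libraries, with Lipe, hormone-sensitive lipase, called (-0.93 ± 0.23 SE, adjusted p = 0.0412) and none of the other members. The Lipe call was lost in 13 of 20 alternatives. After vehicle the adipocyte list summed to 303, 349 and 256 CPM in transgene and 520, 447 and 422 CPM in flox libraries. Its median difference was -0.93 after tamoxifen and -1.22 after vehicle. Over the alternatives the median after tamoxifen ran from -1.24 to 0.325. The list's part in the result was not tested.

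Of 26 tested genes of insulin and IGF signalling, 4 were higher and 1 lower, 19.2% called against 5.23% of all genes, with a median of 0.18. Insr, the insulin receptor, stood at 81.4, 84.4 and 83.2 CPM against 65.1, 55.9 and 62.9 CPM after tamoxifen and differed by 0.44 ± 0.10 (SE, adjusted p = 0.0217). It was also called after vehicle, by 0.47 ± 0.10 (SE, adjusted p = 0.0402). Tbc1d4, a target of AKT in glucose uptake, stood at 50.6, 40.8 and 46.8 CPM against 22.3, 20.4 and 24.1 CPM and was higher by 1.05 ± 0.24 (SE, adjusted p = 0.0333). Pik3ca, the catalytic subunit of PI3-kinase, was higher by 0.46 ± 0.10 (SE, adjusted p = 0.0209). Mtor, the growth kinase, was lower, at 50.9, 49.2 and 49.9 CPM against 65.6, 57.1 and 62 CPM, with a difference of -0.30 ± 0.08 (SE, adjusted p = 0.0487). Without 1 tamoxifen library the higher calls numbered 0 (without flox replicate 2) to 2, and the lower calls 0.

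MAP kinase phosphatases, which switch off ERK, JNK and p38, gave 3 higher genes and 0 lower among 12, a share of 25.0% against 5.23% of all genes. Dusp10 stood at 33, 49.5 and 34.2 CPM against 13.2, 11.9 and 13.5 CPM, with every transgene library above every flox library and a difference of 1.59 ± 0.20 (SE, adjusted p = 0.00158). Dusp8 stood at 50.2, 58.5 and 71.5 CPM against 29.7, 20.6 and 25.3 CPM and differed by 1.25 ± 0.16 (SE, adjusted p = 0.0017). Dusp14, the lowest of them in level, differed by 1.45 ± 0.28 (SE, adjusted p = 0.0133). Dusp8 and Dusp10 were called in all 20 alternatives, and after vehicle they differed by 0.29 and 0.84 without passing the test (adjusted p = 0.391 and 0.0678).

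Collagens and other matrix genes gave 4 higher genes and 0 lower among 32, 12.5% called against 5.23% of all genes. Postn, periostin, stood at 15.1, 9.79 and 9.72 CPM against 3.76, 5.82 and 5.92 CPM and was higher by 1.16 ± 0.25 (SE, adjusted p = 0.0189). Col6a2, a chain of collagen VI, stood at 42.8, 43 and 44.6 CPM against 23.7, 27.6 and 19.1 CPM and was higher by 0.89 ± 0.21 (SE, adjusted p = 0.0312), while Col5a2 and the laminin chain Lamc1 differed by 0.82 ± 0.18 (SE, adjusted p = 0.0192) and 0.48 ± 0.10 (SE, adjusted p = 0.0153). The median of the list was 0.55 after tamoxifen and -0.16 after vehicle, against -0.01 over all genes tested after tamoxifen. The list summed to 1490 to 1630 CPM in the transgene and 846 to 1240 CPM in the flox tamoxifen libraries. Fibroblast and fibro-adipogenic progenitor markers summed to 1270 to 1380 CPM against 991 to 1260 CPM. None of their 15 tested members was called, with Col3a1 and Col1a1 at 1.26 ± 0.34 (SE, adjusted p = 0.0664) and 1.09 ± 0.32 (SE, adjusted p = 0.0864), and their part in the result was not tested. Calls in the matrix list numbered 3, 3 and 2 without transgene tamoxifen replicates 1, 2 and 3, and 1, 2 and 0 without flox tamoxifen replicates 1, 2 and 3. They numbered 14 with DESeq2, 10 with limma-voom and quality weights, 8 with only the 6 libraries compared and 12 without flox vehicle replicate 3. Of 18 integrin subunits 2 (11.1%, against 5.23% of all genes) were also higher, Itgav by 0.52 ± 0.12 (SE, adjusted p = 0.0226) and Itgb6 by 1.07 ± 0.27 (SE, adjusted p = 0.0466), the latter lost in 13 of 20 alternatives.

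Sarcomere, Z-disc and costamere genes gave 4 higher and 1 lower among 37 (13.5%, against 5.23% of all genes), with a median of 0.00. Beside Actc1, the higher ones were Vcl (vinculin, 0.47 ± 0.10 SE, adjusted p = 0.0205), Sgcb (beta-sarcoglycan, 0.30 ± 0.07 SE, adjusted p = 0.0304) and Dag1 (dystroglycan), all linkers between the fibre and the matrix. No gene of the list was called without transgene replicate 3 or without any 1 flox tamoxifen library. Calcium handling genes gave 3 higher and 0 lower among 22 (13.6%). Asph, whose locus encodes junctin and junctate, stood at 238, 301 and 306 CPM against 176, 153 and 179.9 CPM and differed by 0.73 ± 0.11 (SE, adjusted p = 0.00322), in every alternative. The store-operated channel Orai1 differed by 0.40 ± 0.08 (SE, adjusted p = 0.0169), and the calcium buffer Casq1, on the fast fibre list, by 0.77 ± 0.16 (SE, adjusted p = 0.0176). Calls in the calcium list numbered 6 without transgene replicate 1 and 1 without flox replicate 2. Of 18 tested genes of myogenic factors and regeneration 2 were called (11.1%, against 5.23% of all genes). Myod1 and Mef2c, transcription factors of the myogenic programme, were higher by 1.01 ± 0.25 (SE, adjusted p = 0.0448) and 0.43 ± 0.10 (SE, adjusted p = 0.0232), and the Myod1 call was lost in 14 of 20 alternatives.

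Polyamine genes gave 2 higher members among 14 (14.3%, against 5.23% of all genes). Azin1, which blocks the inhibitor of ornithine decarboxylase, stood at 46.5, 56.6 and 60.8 CPM against 30.3, 25.1 and 28.4 CPM and differed by 0.97 ± 0.16 (SE, adjusted p = 0.0056), in every alternative. Amd1, S-adenosylmethionine decarboxylase, stood at 394, 743 and 681 CPM against 337, 301 and 265 CPM after tamoxifen, with a difference of 1.01 ± 0.24 (SE, adjusted p = 0.0341) that was lost in 9 of 20. It lay at 1705, 1443 and 2546 CPM and 1606, 1353 and 1420 CPM after vehicle, and its near-identical copy Amd2 may share its reads. Amino acid transporters gave 1 higher and 2 lower among 21 (14.3%), with Slc7a2, a carrier of arginine and lysine, at 83.4, 95.9 and 117 CPM against 162, 138 and 217 CPM and lower, with a difference of -0.81 ± 0.15 (SE, adjusted p = 0.0129). The ligase list of atrophy genes gave 2 lower among 26 (7.69%, near the 5.23% of all genes), Fbxo21 (-0.84 ± 0.15 SE, adjusted p = 0.00928) and Cblb (-0.62 ± 0.12 SE, adjusted p = 0.012), and 0 higher.

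**Figure D4:**
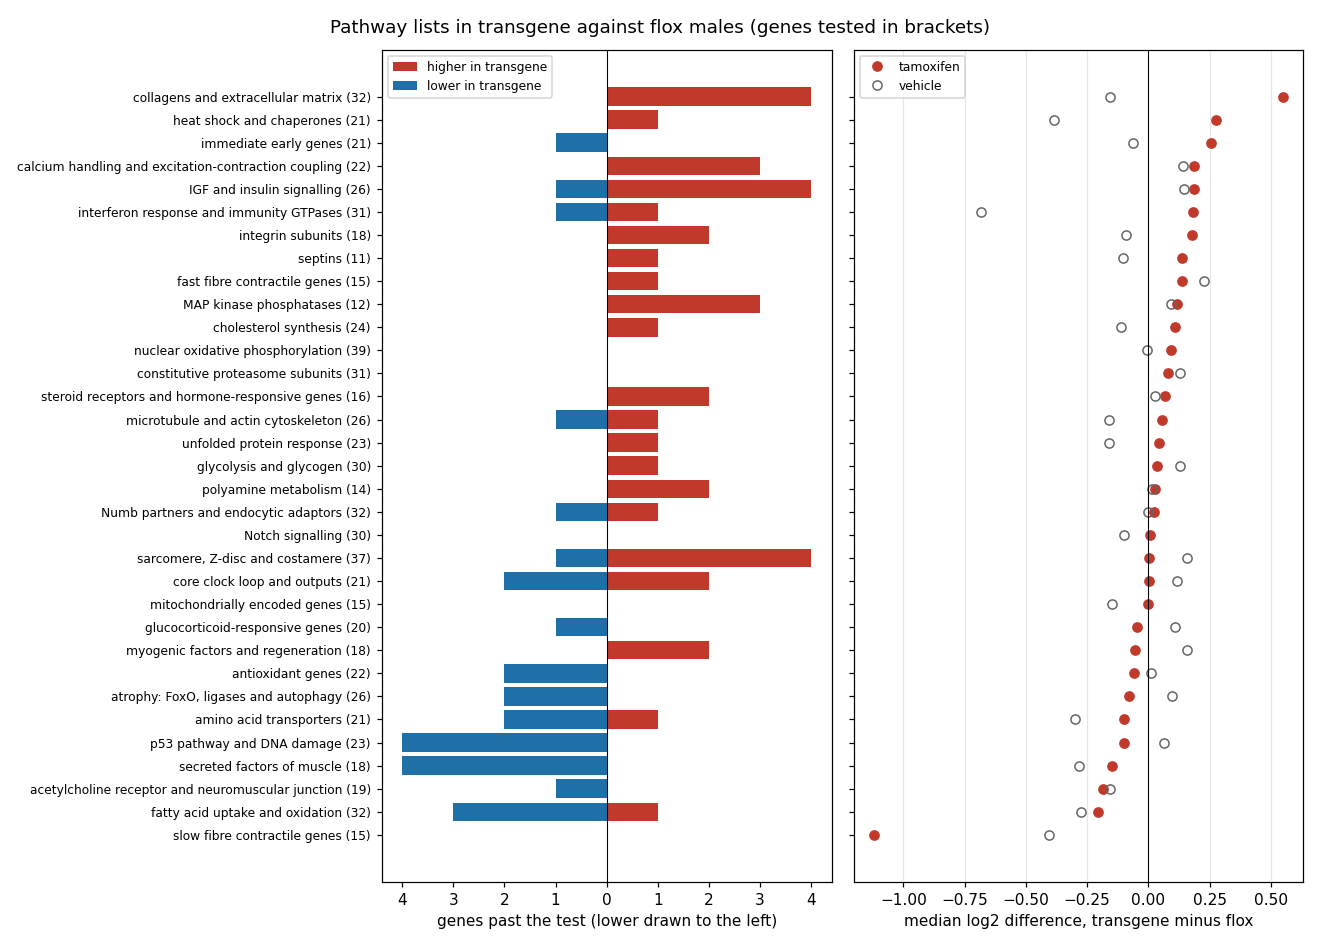
Genes past the test after tamoxifen in each of 33 pathway lists (left, higher drawn to the right and lower to the left, number tested in brackets) and the median log2 difference of each list after tamoxifen and after vehicle (right). The matrix list has the highest median after tamoxifen (0.55), the slow fibre list the lowest (-1.12), and no list has more than 5 genes past the test.

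Of the antioxidant genes 2 of 22 (9.09%, against 5.23% of all genes) were lower, Aldh3a1 and Aox1, an aldehyde oxidase, at 27.8, 24.5 and 25.7 CPM against 46.9, 43.4 and 49.9 CPM (-0.85 ± 0.18 SE, adjusted p = 0.0217). Map1a, a microtubule-associated protein, was lower after tamoxifen (-1.28 ± 0.26 SE, adjusted p = 0.0213) and after vehicle (-1.54 ± 0.26 SE, adjusted p = 0.0273), while the tubulin Tuba8 was higher after tamoxifen (0.68 ± 0.15 SE, adjusted p = 0.0211). In glycolysis 1 of 30 tested gene IDs was called (3.33%, against 5.23% of all genes), with 2 of the IDs under the symbol Aldoa. It was Pgam2, the muscle phosphoglycerate mutase, at 1503, 2060 and 2120 CPM against 1383, 1180 and 1142 CPM (0.62 ± 0.15 SE, adjusted p = 0.0296). Chrna1, the alpha subunit of the muscle acetylcholine receptor, was lower (-0.52 ± 0.13 SE, adjusted p = 0.0352). It was the only junction gene of 19 called (5.26%, near the 5.23% of all genes). Among 31 interferon genes, 6.45% of which were called, Irgm2, an immunity GTPase, was higher (0.64 ± 0.14 SE, adjusted p = 0.0178) and Ifi27 lower (-0.48 ± 0.11 SE, adjusted p = 0.0209). The immediate early gene Ier3 was lower (-0.74 ± 0.19 SE, adjusted p = 0.0413), and the small heat shock protein Hspb8 and the septin Sept9 were higher, by 0.55 and 0.35 (adjusted p = 0.0486 and 0.0322), the call of Hspb8 lost in 10 of 20 alternatives. Ier3, Hspb8 and Sept9 were each the only called gene of their lists, of 21, 21 and 11 tested (4.76%, 4.76% and 9.09%).

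Other lists held few or no called genes. Numb partners and endocytic adaptors gave 1 higher, Ehd4 (0.47 ± 0.12 SE, adjusted p = 0.0414), and 1 lower, Prkcz, an atypical protein kinase C, at 1.37, 0.902 and 1.36 CPM against 3.96, 2.91 and 2.63 CPM (-1.37 ± 0.29 SE, adjusted p = 0.0164). That is 6.25% of 32 tested, near the 5.23% of all genes. Of 30 Notch signalling genes 0 passed, and the smallest p belonged to Notch4 (-0.49 ± 0.15 SE, adjusted p = 0.0715) and Dtx4 (0.60 ± 0.20 SE, adjusted p = 0.107). None passed among 39 nuclear genes of oxidative phosphorylation, 31 proteasome subunits and 15 mitochondrially encoded genes. The medians of these 3 lists were 0.09, 0.08 and 0.00, and that of the Notch list was 0.00. Car3, carbonic anhydrase 3, and Rhpn2 differed by -0.25 ± 0.22 (SE, adjusted p = 0.551) and -0.11 ± 0.22 (SE, adjusted p = 0.824).

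The slow fibre genes had the lowest median of any list, -1.12, and none of 15 passed the test. The smallest p belonged to Pln (-1.13 ± 0.38 SE, adjusted p = 0.1075) and Myh7b (-1.94 ± 0.97 SE, adjusted p = 0.302). Myh7 and Tnni1, given below, are outside the naming rule. The 3 transgene libraries were spread widely. Myh7, the slow myosin heavy chain, stood at 767, 221 and 10.3 CPM in the transgene libraries and 1030, 1123 and 850.2 CPM in the flox libraries. It differed by -1.59 ± 1.23 (SE, adjusted p = 0.513). The same order held for Tnni1, slow troponin I, at 128, 34.4 and 1.97 CPM against 134, 116 and 98.3 CPM. Summed over the list, transgene libraries lay between 1020 and 6910 CPM and flox libraries between 5020 and 6100 CPM. The transgene vehicle males were also spread, with Myh7 at 422, 937 and 63.2 CPM. With the slow fibre level of each library as a covariate, 928 genes were called after tamoxifen, 600 of them among the 817.

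**Figure D5:**
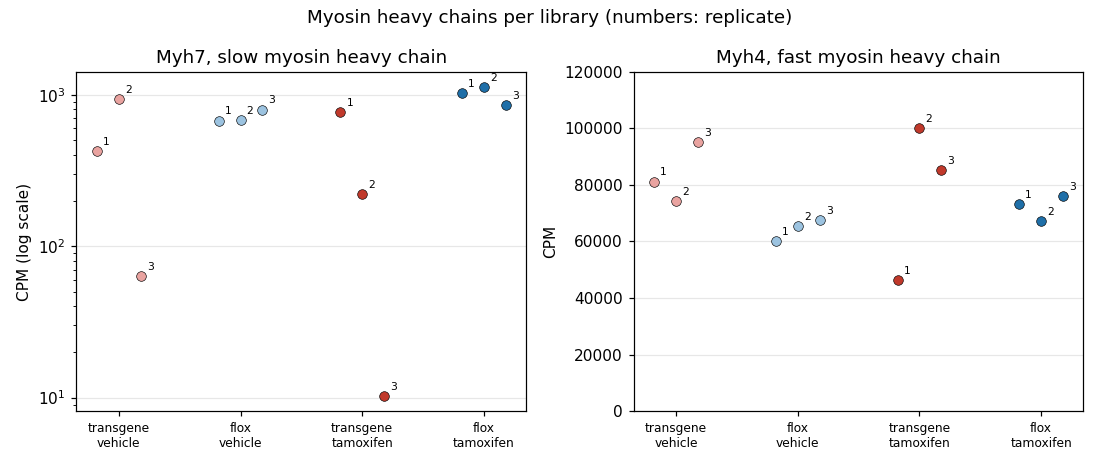
Level of the slow myosin Myh7 (left, CPM on a log axis) and the fast myosin Myh4 (right, CPM from 0) in each male library, with replicate numbers beside the points. Myh7 runs from 10.3 to 767 CPM in the 3 transgene tamoxifen libraries and from 850 to 1120 CPM in the flox ones, and transgene tamoxifen replicate 1 has the lowest Myh4.

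The 12 cell type lists, muscle fibres among them, gave 3 called genes, 1 each in the adipocyte, tendon and endothelial lists. These were 6.67%, 7.69% and 7.14% of the 15, 13 and 14 members tested, near the 5.23% of all genes. The called genes were Lipe above, Col22a1, a collagen of the myotendinous junction, higher by 0.80 ± 0.16 (SE, adjusted p = 0.0159), and Aqp1, a water channel of endothelium, lower, with a difference of -0.43 ± 0.11 (SE, adjusted p = 0.0363). The endothelial list summed to 704 to 819 CPM in transgene and 756 to 978 CPM in flox libraries, and the tendon list to 181 to 234 CPM and 153 to 273 CPM. The blood cell list summed to 300 to 641 CPM and 493 to 778 CPM, and the macrophage list to 55.1 to 96.1 CPM and 69.6 to 78.7 CPM. In each of these 4 lists the genotypes overlapped. The satellite cell list did not overlap, at 64.5 to 70 CPM in transgene and 60 to 63.8 CPM in flox libraries, with 5 of its 9 members higher in transgene males. The sums of the adipocyte and fibroblast lists, given above, did not overlap either. Among single genes tested, 27.7% did not overlap. No member was called in the lists for muscle fibres, satellite cells, fibroblasts, pericytes, macrophages, lymphocytes, neutrophils, blood cells and Schwann cells.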

How the data were processed

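RNA was sequenced from gastrocnemius muscle. The authors deposited raw counts of reads per Ensembl gene, not normalized. The submitters' processing notes name STAR, featureCounts and limma, and as builds GRCm38 and mm10, with no version or role. Strand and multi-mapping settings were not given in the sources used here, so overlapping genes and near-identical copies are uncertain. GENCODE (GRCm38) gave a symbol for 54723 of the 54752 gene IDs.

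All 12 male libraries were fitted together with edgeR 4.0.16 (R 4.3.3), using TMM scaling, filterByExpr (minimum count 10, minimum total count 15), robust dispersions and the quasi-likelihood F-test. Benjamini-Hochberg adjustment over all 15628 genes and a threshold of 0.05 were used, and every adjusted p-value comes from edgeR's test where no tool is named. The SE is the log2 difference divided by the square root of F. The script was tested on simulated data. Groups come from the titles. The males' numbers pair no libraries. Alternatives were RLE scaling, other filters, only the 6 libraries compared, DESeq2 1.42.0, limma-voom (limma 3.58.1) with and without quality weights, a slow fibre covariate and leaving out each library.

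The comparison, the 45 gene lists and the naming rule were chosen with earlier results of these data known. The rule named Numb, Numbl, Esr1, Flrt1, Rhpn2, Dkk3, Amd1 and Car3. It added the 12 largest called rises and falls with a mean log2 CPM (prior count 2) of at least 0, no overlap and a symbol that is no clone or predicted model, and up to 4 called members of each list, or where none was called the 2 of smallest p. For the interaction it took up to 5 called genes with the same limits, which left Eno1b; Aldh3a1 was below the level limit there and is named from its list. The level limit was first read as the mean of log2 CPM. It was then tried as edgeR's average, with the names it gave already seen, and was returned to the first reading. Some genes that the rule took are not reported here, but stay in the fits and in the counts of their lists. Genes outside the rule are said to be chosen after their values were seen, apart from Mtor, Dag1, Myh7, Myh4 and Tnni1, which the rule did not take either.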

Additional observations from a re-analysis of the deposited data

Results flagged for a closer look

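In males the genotype difference was not the same in the tamoxifen and the vehicle libraries for 2 genes, by the test of that change. For Aldh3a1 the difference after tamoxifen minus that after vehicle was -5.61 on the log2 scale (adjusted p = 0.00644), and only the flox tamoxifen libraries were high. For Eno1b it was -4.86 (adjusted p = 0.00478), and only the flox vehicle libraries were low. With limma-voom, with or without quality weights, neither was called. The Aldh3a1 call was also lost without transgene vehicle replicate 1, 1 of the 3 libraries whose title and treatment field disagree. Female tamoxifen libraries held Aldh3a1 at 0.0478, 0.261 and 0.0827 CPM in transgene and 4.19, 0.366 and 0.699 CPM in flox females. Eno1b lay at 3.517, 0.1308 and 0.0723 CPM in flox females after tamoxifen and at 0.07966, 3.588 and 3.532 CPM after vehicle. Transgene females held it at 0, 2.408 and 1.24 CPM after tamoxifen and 1.102, 1.244 and 1.295 CPM after vehicle. Eno1b thus varied widely between flox females within each treatment. The part of such variation between animals in the male Eno1b result was not tested.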

How the results depend on the processing

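After tamoxifen the 817 called genes became 1312 with DESeq2 and 1477 with limma-voom and quality weights. With 1 library left out at a time the count lay between 280 and 997. The 148 vehicle calls became 327 with no filter on low counts, 601 with DESeq2, 677 with quality weights and 247 with the slow fibre covariate, and lay between 44 and 204 without 1 library. The 2 interaction calls became 38 with no filter, 79 with DESeq2, 0 with limma-voom, 4 with quality weights and 4 with the slow fibre covariate, and lay between 2 and 8 without 1 library. The cause of these changes was not tested. The other alternatives left each count within 1.5 times. No split of higher and lower calls after tamoxifen moved by over 10 percentage points under another scaling. Of 78 reported genes that the naming rule took and that were called after tamoxifen, 20 kept their call in each of the 20 alternatives, and 58 did not. Beside those marked in the report, calls lost in 7 to 9 alternatives were those of Aqp1, Chrna1, Col6a2, Ier3, Pgam2, Ppard, Sept9, Sgcb and Tbc1d4.

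Directions turned for 3 genes that were not called. With the slow fibre covariate Eno1b came to -0.045 and Flrt1 to -0.0144. Without 1 library at a time Eno1b ran from -0.19 (without transgene tamoxifen replicate 3) to 0.49 and Rhpn2 from -0.36 to 0.032 (without transgene tamoxifen replicate 1). No paired analysis was possible because the titles give each male its own number. Depth limits genes near 1 CPM, such as Cd59b and Gdf15.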
